A study of Americamysis bahia with 35 samples.

Results

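A set of 45 assembled genes of the mysid shrimp Americamysis bahia differed in how their transcript output was divided among isoforms between animals exposed to unweathered tire wear particle leachate at 1.08 g/L and unexposed controls. They were selected on those very libraries. A gene qualified when it had at least 2 assembled isoforms and a summed estimated count of at least 50 in each of the 10 libraries of both groups. One of its isoforms also had to have a share of the gene's TPM (transcript level per length, scaled to the same total in every library) that lay above, or below, all 5 control libraries in all 5 exposed libraries. The group means of that share had to differ by at least 10 percentage points. The criterion could be applied to 4422 of the 22900 assembled genes, and the 45 genes were 1.02% of those. Because the unweathered 1.08 g/L and control libraries chose the genes, every value from those 10 libraries below, the authors' own test included, is a description that supports nothing further.

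The study measured polyadenylated RNA from whole bodies of juveniles, 5 days old by the labels, after 96 h in leachate of tire wear particles made with seawater of 25 ppt. The 35 libraries form 7 groups of 5: unweathered leachate (0.27, 0.54 and 1.08 g/L), weathered leachate (0.67, 1.34 and 2.68 g/L) and a control kept in seawater without leachate (0 g/L). All groups were fed Artemia nauplii. No concentration was used for both leachates. The labels do not say whether a library is 1 animal or a pool, nor whether replicates came from separate tanks, and p-values below reflect the spread among libraries, which may be technical. Estimated counts per library summed to between 18081325 and 28390588. In whole-body RNA, fewer cells of a type and less RNA per cell cannot be told apart.

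Alternative splicing, alternative start sites and alternative polyadenylation let a gene make several transcripts, which can encode different proteins or differ in their stability and translation. In arthropods, muscle genes are a well-known case, with isoforms that change between tissues and stages. In an assembly made without a genome, an isoform is a path through a cluster of overlapping reads, so allelic variants and very similar gene copies can be listed as isoforms of 1 gene as well. Reads that match several isoforms are divided among them by estimation, and the shares of near-identical isoforms are the least certain. The files do not pair the assembled genes with names or functions, so the members are described by their isoform structure and values. Only 4 isoforms are named, each the lead isoform of its gene, as defined below. They are the leads with the 2 largest mean gains and the 2 largest mean losses among members with at least 50 counts in all 35 libraries. Isoforms that were not leads were not ranked, and some of them lost more. The other members are given by their rank, 1 to 45, in the size of the share difference.

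In each gene the isoform meeting the criterion with the largest difference is called the lead isoform. Where 2 isoforms tied, as they always do in a gene with only 2, the one that gained was taken as the lead. Its share was larger at unweathered 1.08 g/L than in controls in 28 genes and smaller in 17. The 28 include all 15 members with 2 isoforms, whose leads are gains by this rule, so no excess of gains is read from these counts. The difference was 20 points or more in 8 genes, between 15 and 20 points in 16 and under 15 points in 21, with a median of 15.5 points. Over all 4422 genes the isoform with the largest difference had a median of 3.95 points. Only the genes of rank 1 and 2 reached 40 points, and only 3 genes reached 25 points. The most abundant isoform on average was a different one at unweathered 1.08 g/L than in controls in 16 genes and the same in 29.

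For most members the groups were separated by little. The gap between the closest exposed and control libraries was 60.3 points in the gene of rank 1, 8.50 points in the next largest case, and 2.14 points at the median. It was under 5 points in 37 genes and under 1 point in 8. In the narrowest case, the gene of rank 32, the lead isoform held 100% in all 5 libraries at unweathered 1.08 g/L, against 89.6%, 80.3%, 90.4%, 99.9999% and 77.6% in controls. One control library of that gene therefore stood next to the exposed group. At the threshold of 10 points, the last 3 genes inside had differences of 10.07, -10.15 and -10.17 points. The nearest genes outside had differences of -9.87 and 9.70 points. A further 114 isoforms were separated between the groups with a mean difference under 10 points, out of 176 separated isoforms among the 12396 examined (1.42%).

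**Figure D1:**
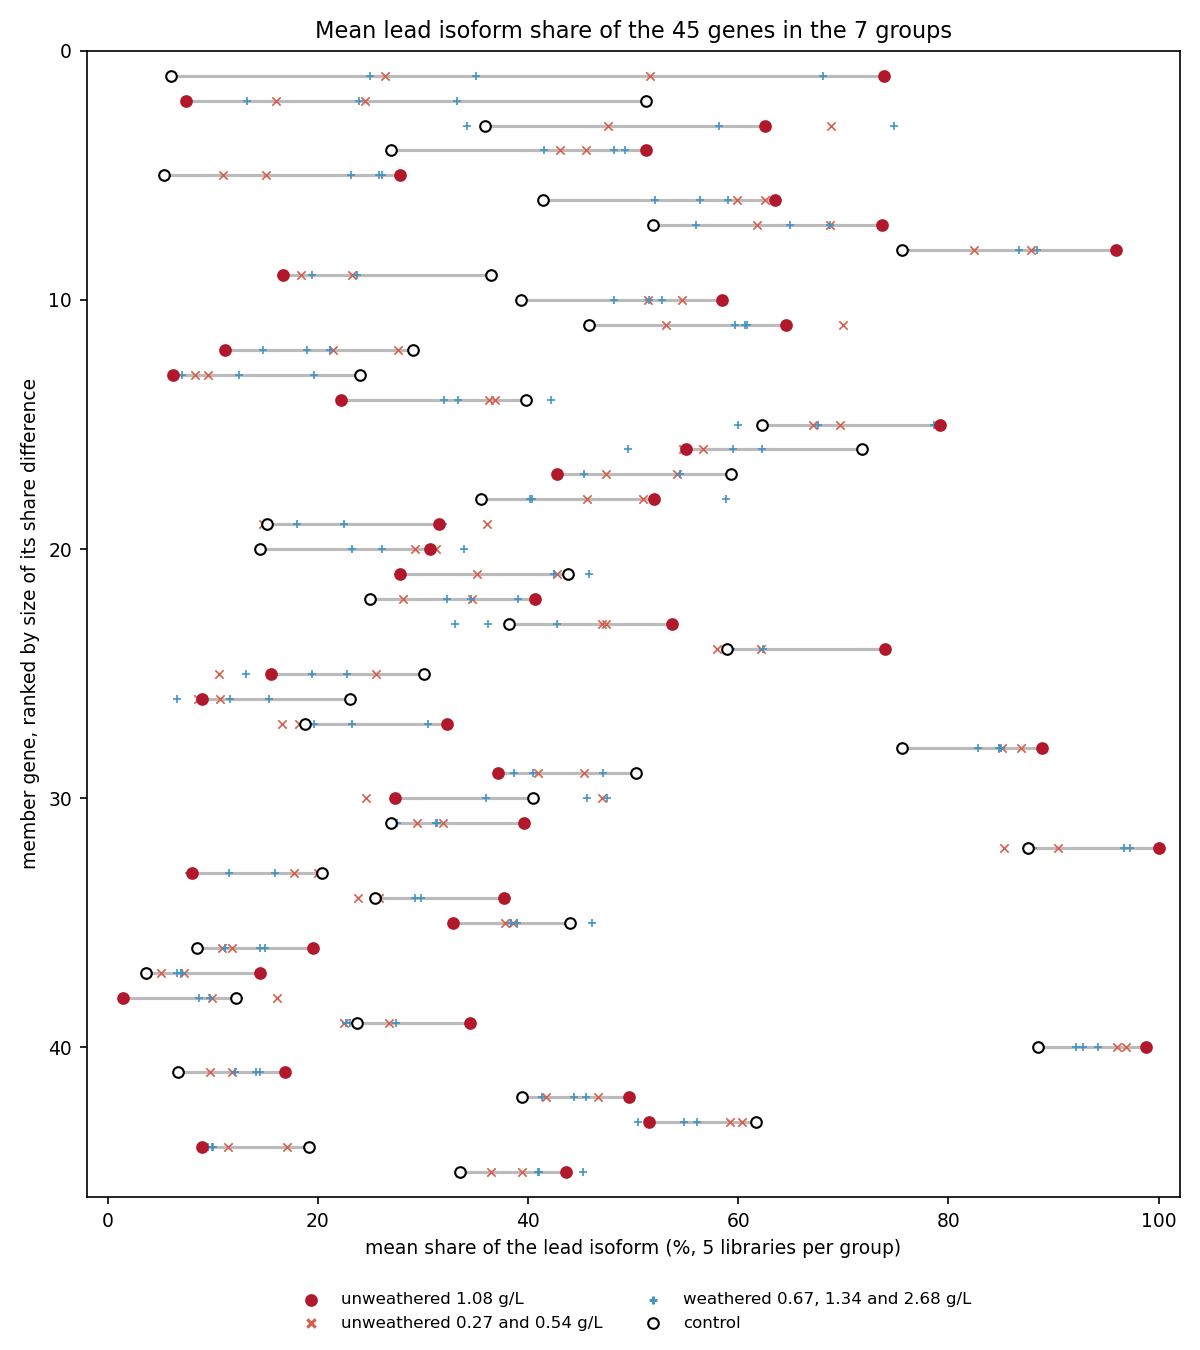
Mean share (%, horizontal axis) of the lead isoform of each of the 45 genes (vertical axis, ranked by the size of the difference); filled circles are unweathered 1.08 g/L, open circles the control, crosses the lower unweathered concentrations and plus signs the 3 weathered groups, each the mean of 5 libraries. The gene of rank 1 spans 67.9 points between filled and open circle, and 21 genes span less than 15 points.

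The same criterion was then applied to the other comparisons, each over its own genes with enough counts. It was met by 30 genes (0.687%) at unweathered 0.27 g/L and by 43 (0.982%) at 0.54 g/L. For weathered leachate, 35 genes (0.805%) met it at 0.67 g/L. At 1.34 g/L there were 37 (0.847%), and at 2.68 g/L there were 42 (0.941%). These comparisons all share the 5 control libraries. Between exposed groups, 27 genes (0.612%) met it for weathered 2.68 against 0.67 g/L and 24 (0.551%) for unweathered 0.54 against 0.27 g/L.

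**Figure D2:**
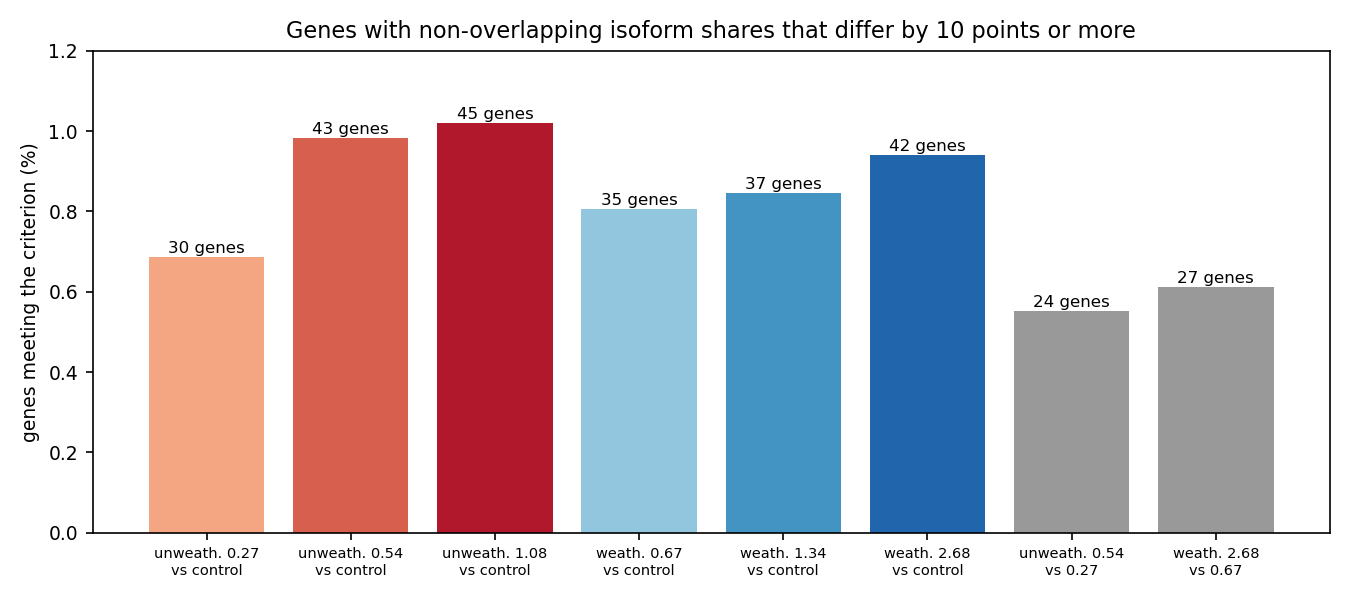
Share of examined genes (%, vertical axis) that met the same isoform criterion in each comparison (horizontal axis), with the number of genes above each bar. Unweathered 1.08 g/L against control has the tallest bar, at 1.02%, and unweathered 0.54 g/L (0.982%) and weathered 2.68 g/L (0.941%) against control stand close to it.

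Isoform number, isoform length and summed count are given next as a description, beside all examined genes. The criterion set a minimum for the number and the count, and the isoforms compared by length were picked by their share differences. Of the 45 members, 15 had 2 isoforms, 15 had 3, 7 had 4, 3 had 5 and 5 had 6. Their median was 3 isoforms, against 2 over the 4422 genes, and 33.3% of members had only 2, against 57.3% of all. A gene with more isoforms has more chances to meet the criterion. In 17 members a second isoform met the criterion too, and in 28 the lead was the only one. All 15 members with 2 isoforms are among the 17, because 2 shares that add up to the whole gene meet the criterion together.

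The isoform that gained most and the one that lost most in the same gene were often of similar length. Their lengths differed by a median of 67 bases in the members, against 216 bases over the 4422 genes. The difference was under 50 bases in 20 members (44.4%), against 21.7% of all genes. At the other end, 5 members had isoforms that differed by over 1000 bases, up to 5242 bases in the gene of rank 36. The gaining isoform was the longer one in 24 members (53.3%) and the shorter one in 21, beside 48.3% longer over all genes. The summed estimated count of the members had a median of 377 per library, against 438 over the 4422 genes, and ranged between 87.3 and 5795.

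The gene TRINITY_DN734_c0_g1, of rank 1, stood apart from the other members in 3 ways. These were the size of its difference, the gap between groups, and the change of its total level between them. Its 4 isoforms had 1914, 1915, 1920 and 1920 bases. The lead, TRINITY_DN734_c0_g1_i20, is the one of 1915 bases. It held 71.6%, 67.8%, 78.7%, 69.1% and 82.2% of the gene's TPM at unweathered 1.08 g/L, against 6.54%, 2.58%, 7.11%, 6.32% and 7.54% in controls. All 5 exposed libraries were far above all 5 controls. The less abundant isoform of 1920 bases held at most 8.84% in any of the 35 libraries. The more abundant isoform of 1920 bases held 19.2%, 24.1%, 15.3%, 22.5% and 14.4% at unweathered 1.08 g/L, against 76.4%, 89.1%, 84.9%, 90.6% and 84.7% in controls. The gene was thus represented mainly by the 1915-base isoform at unweathered 1.08 g/L and mainly by the 1920-base isoform in controls.

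At the lower unweathered concentrations the share of the 1915-base isoform lay between those extremes. At 0.27 g/L it was 21.7%, 19.0%, 25.0%, 49.6% and 16.6%. At 0.54 g/L it was 74.1%, 35.5%, 36.0%, 61.5% and 51.0%. In order of concentration, the group means were 6.02% ± 1.98 in controls, then 26.4% ± 13.3, 51.6% ± 16.6 and 73.9% ± 6.28 in the 0.27, 0.54 and 1.08 g/L groups (SD, n = 5 each). Libraries at 0.27 and 0.54 g/L overlapped through the fourth library of the lower group, and those at 0.54 and 1.08 g/L overlapped through the first library at 0.54 g/L.

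The weathered groups were more uneven. At 0.67 g/L the share was 53.8%, 26.7%, 6.92%, 3.67% and 33.6%, and at 1.34 g/L it was 30.4%, 29.5%, 1.74%, 60.6% and 53.0%. At 2.68 g/L it was 60.4%, 70.6%, 78.6%, 65.0% and 65.8%. The 2 lower weathered groups overlapped widely. At 0.67 g/L, 2 libraries lay within the control range and 1 above 50%, and at 1.34 g/L, 1 library lay below the control range and 2 above 50%. The 2.68 g/L libraries were all above the 0.67 g/L libraries and nearly all above those at 1.34 g/L, whose highest library passed the lowest one at 2.68 g/L. Group means were 24.9% ± 20.5, 35.03% ± 23.1 and 68.1% ± 6.88 at 0.67, 1.34 and 2.68 g/L (SD, n = 5 each).

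**Figure D3:**
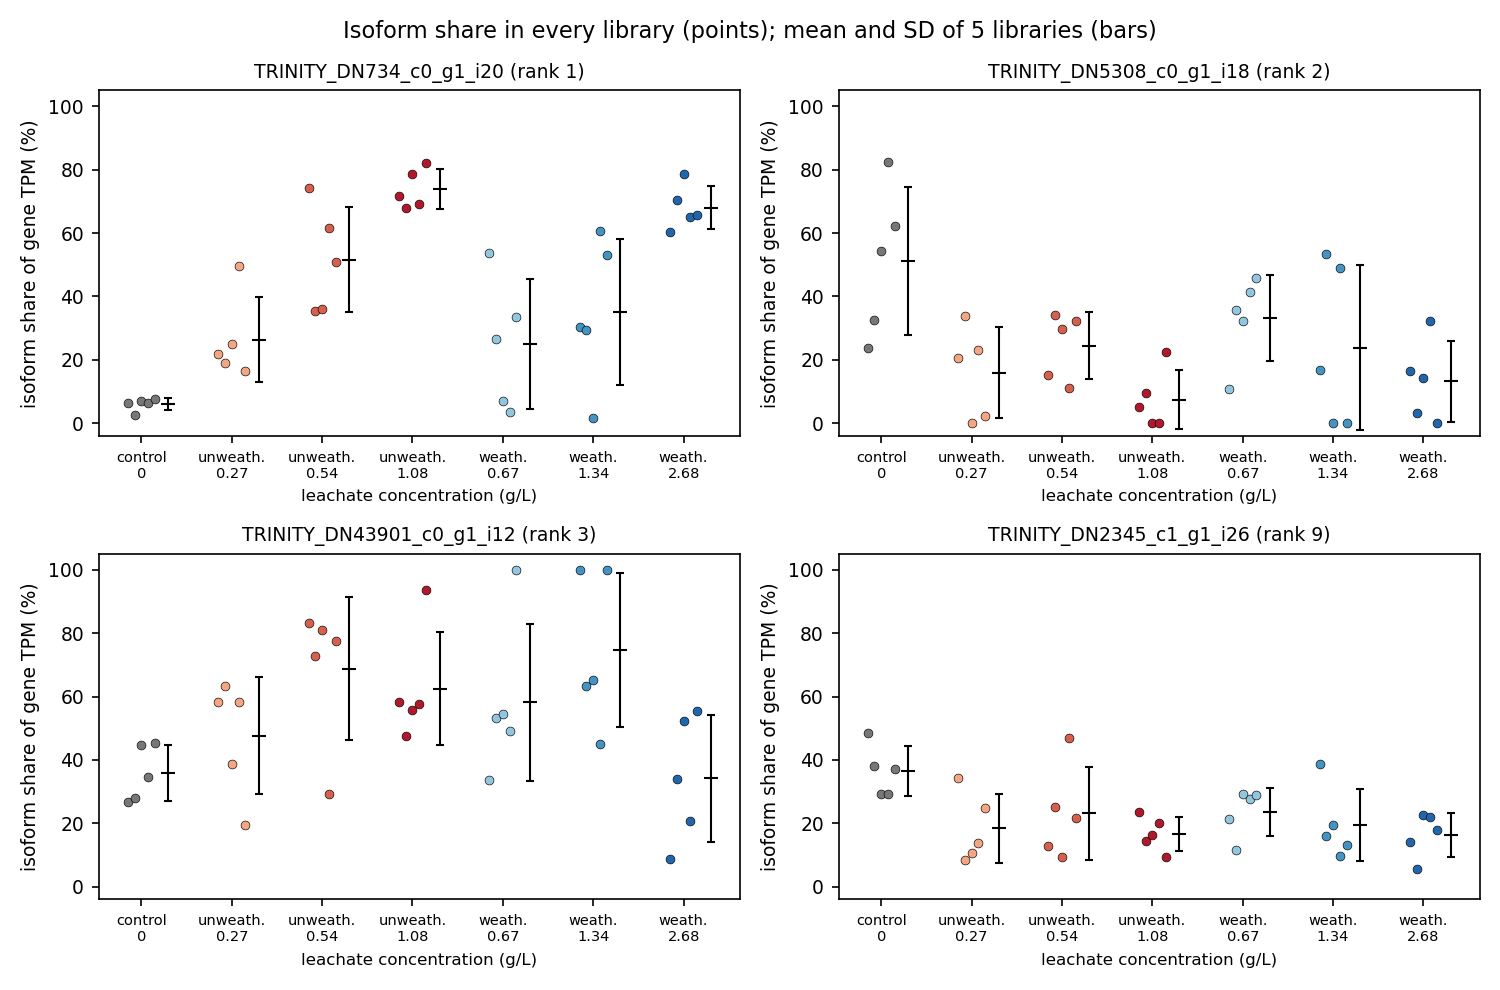
Share of the gene's TPM (%, vertical axis) of the 4 named isoforms in every library (points) of the 7 groups (horizontal axis, leachate concentration in g/L), with the mean and SD of 5 libraries as bars. The isoform of rank 1 is at 67.8% to 82.2% at unweathered 1.08 g/L and at 2.58% to 7.54% in controls. Within some of the other groups the points of all 4 isoforms scatter widely.

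The levels of the isoforms of this gene are given next, in TPM. The 1915-base isoform had 103.7, 78.5, 122, 71.2 and 131 TPM at unweathered 1.08 g/L, against 1.87, 0.666, 1.39, 1.13 and 1.84 TPM in controls. The 1920-base isoform had 27.7, 27.8, 23.7, 23.2 and 22.9 TPM at unweathered 1.08 g/L, against 21.8, 23.0, 16.5, 16.2 and 20.7 TPM in controls. For the 1920-base isoform the groups overlapped by 1 library, and for the 1915-base isoform the lowest exposed library was far above the highest control. The 1914-base isoform had 9.78, 9.41, 8.21, 7.30 and 5.31 TPM at unweathered 1.08 g/L, against 2.44, 1.71, 1.39, 0.558 and 1.89 TPM in controls, without overlap. Summed over isoforms, the gene had 145, 116, 155, 103 and 159 TPM at unweathered 1.08 g/L, against 28.6, 25.8, 19.5, 17.9 and 24.4 TPM in controls. In the authors' deposited table of 1.08 against 0 g/L, the 1915-base isoform had a log2 fold change of 6.25 with an adjusted p of 7e-05. The same authors' deposited table gives 2.39 with an adjusted p of 0.00108 for the 1914-base isoform, and 0.38 with an adjusted p of 0.161 for the 1920-base isoform.

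The weathered libraries were not used by the selection. The 1915-base isoform had 33.6, 62.3, 98.6, 39.9 and 62.0 TPM at 2.68 g/L, against 9.84, 8.34, 1.27, 0.608 and 8.998 TPM at 0.67 g/L. The 1920-base isoform had 17.7, 18.4, 20.5, 18.9 and 19.9 TPM at 2.68 g/L, against 6.87, 19.7, 14.0, 14.0 and 15.2 TPM at 0.67 g/L. The groups did not overlap for the first isoform and did for the second. The whole gene had 55.5, 88.3, 126, 61.3 and 94.2 TPM at 2.68 g/L, against 18.3, 31.2, 18.3, 16.6 and 26.8 TPM at 0.67 g/L, again without overlap. The total of the gene was higher at 2.68 g/L, by 1.85 ± 0.317 on the log2 scale (SE, adjusted p = 0.00833, edgeR's quasi-likelihood test over 17990 genes). It was the only member whose total was called, beside 14 calls over all genes (0.0778%). Fitted on the 10 libraries of these groups alone, the difference was 1.84 with an adjusted p of 0.0583, which is no call.

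**Figure D4:**
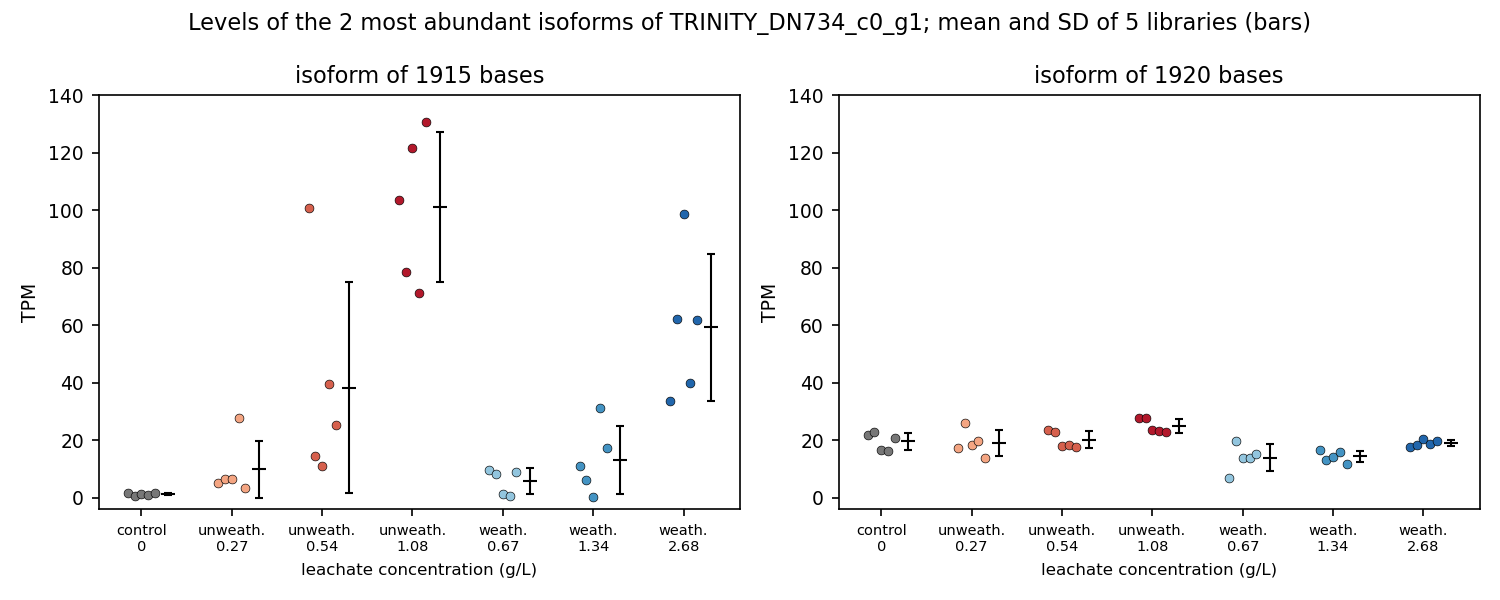
Level in TPM (vertical axis) of the 1915-base and 1920-base isoforms of TRINITY_DN734_c0_g1 in every library (points) of the 7 groups (horizontal axis, leachate concentration in g/L), with the mean and SD of 5 libraries as bars. The 1915-base isoform spans 0.315 to 131 TPM over the 35 libraries and the 1920-base isoform 6.87 to 27.8 TPM.

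The shares of the isoforms of this gene did not pass the test in the libraries that the selection left aside. For the 1915-base isoform the log2 change in its share of the gene's counts was 1.42 ± 0.513 at weathered 2.68 against 0.67 g/L (SE, adjusted p = 0.950, edgeR). For the 1920-base isoform it was -1.42 ± 0.291 (adjusted p = 0.194, edgeR), the second smallest p of the 11303 isoforms tested. Per g/L over the 15 weathered libraries, the slopes were 0.71 ± 0.311 for the 1915-base isoform (adjusted p = 1, edgeR) and -0.72 ± 0.145 for the 1920-base isoform (adjusted p = 0.257, edgeR). At unweathered 0.54 against 0.27 g/L the 1915-base isoform differed by 0.94 ± 0.505 (adjusted p = 1, edgeR).

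The second gene, with the largest loss of a lead isoform, was less even than the first among the libraries that chose the members. In the 5 groups that the selection did not use, the SD of its lead share within a group averaged 15.5 points. The gene of rank 1 had 16.1 points there. TRINITY_DN5308_c0_g1_i18, of 3826 bases, held 5.24%, 9.68%, 0%, 0% and 22.6% of its gene at unweathered 1.08 g/L, against 23.9%, 32.7%, 54.5%, 82.5% and 62.4% in controls. The groups were separated by 1.30 points, between the fifth exposed and the first control library. Means in the other groups were 16.0% at unweathered 0.27 g/L and 24.5% at 0.54 g/L, and 33.2%, 23.9% and 13.2% at weathered 0.67, 1.34 and 2.68 g/L. At weathered 1.34 g/L single libraries ranged between 0% and 53.5%. The share differed by -1.32 ± 1.12 on the log2 scale at weathered 2.68 against 0.67 g/L (SE, adjusted p = 1, edgeR). In the authors' deposited table its own level had a log2 fold change of -2.33 with an adjusted p of 0.329.

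TRINITY_DN43901_c0_g1_i12, of 4875 bases and rank 3, varied widely within most groups. It held 58.3%, 47.5%, 55.8%, 57.6% and 93.5% at unweathered 1.08 g/L, against 26.9%, 27.9%, 44.9%, 34.6% and 45.3% in controls. At weathered 2.68 g/L it held 8.71%, 33.9%, 52.2%, 20.7% and 55.4%, against 33.8%, 53.3%, 54.4%, 49.3% and 100% at 0.67 g/L. The first pair of groups was separated and the second overlapped. Its means were 47.6% and 68.8% at unweathered 0.27 and 0.54 g/L, and 58.2%, 74.8% and 34.2% at weathered 0.67, 1.34 and 2.68 g/L, beside 62.5% at unweathered 1.08 g/L and 35.9% in controls. At weathered 2.68 against 0.67 g/L the log2 change in share was -0.77 ± 0.375 (SE, adjusted p = 1, edgeR), and it was -0.49 without the fifth library at 0.67 g/L, the one at 100%. The authors' deposited table gives its level a log2 fold change of 0.43 with an adjusted p of 0.659.

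TRINITY_DN2345_c1_g1_i26, of 2112 bases and rank 9, held 23.6%, 14.4%, 16.3%, 19.99% and 9.33% at unweathered 1.08 g/L, against 48.5%, 38.2%, 29.2%, 29.3% and 37.1% in controls. The exposed libraries were all lower, by 5.59 points at the closest. Its means in the other exposed groups were 18.4% and 23.2% at unweathered 0.27 and 0.54 g/L, and 23.7%, 19.4% and 16.5% at weathered 0.67, 1.34 and 2.68 g/L. At weathered 2.68 against 0.67 g/L its share differed by -0.60 ± 0.421 on the log2 scale (SE, adjusted p = 1, edgeR), and by -0.39 without the second library at 2.68 g/L. The authors' deposited table gives its level a log2 fold change of -0.91 with an adjusted p of 0.362.

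The weathered groups allowed the members to be looked at in libraries that had not chosen them. At 2.68 against 0.67 g/L the mean share differed in the direction of unweathered 1.08 g/L against control in 34 of 45 members (75.6%), beside 2349 of all 4422 genes (53.1%). The median difference in that direction was 2.00 points for the members and 0.151 points for all genes. Single members lay between -24.0 and 43.1 points, with 19.98 points next below the highest. A difference of 10 points or more in that direction was seen in 9 members, and in the opposite direction in 3. No matching count over all genes is given, so nothing is read from these. The libraries of the groups were separated in 1 member, the gene of rank 1, beside 0.825% of all isoforms. These counts compare no library with one that chose the members, but they are a description, since the members were not tested as a set.

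The lower unweathered groups gave shares close to those of all genes. At 0.54 against 0.27 g/L the mean share differed in the original direction in 23 of 45 members (51.1%), beside 2125 of 4422 genes (48.1%). The median was 0.424 points for the members and -0.0686 points for all genes, and single members lay between -14.9 and 25.2 points. In 5 members the difference was at least 10 points in that direction and in 1 it was so in the opposite direction, again without a matching count over all genes. The groups were separated for the lead isoform in 2 of 45 members, of rank 11 and 30. Over all isoforms, without a choice of 1 per gene, 77 of 12220 (0.63%) were separated.

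**Figure D5:**
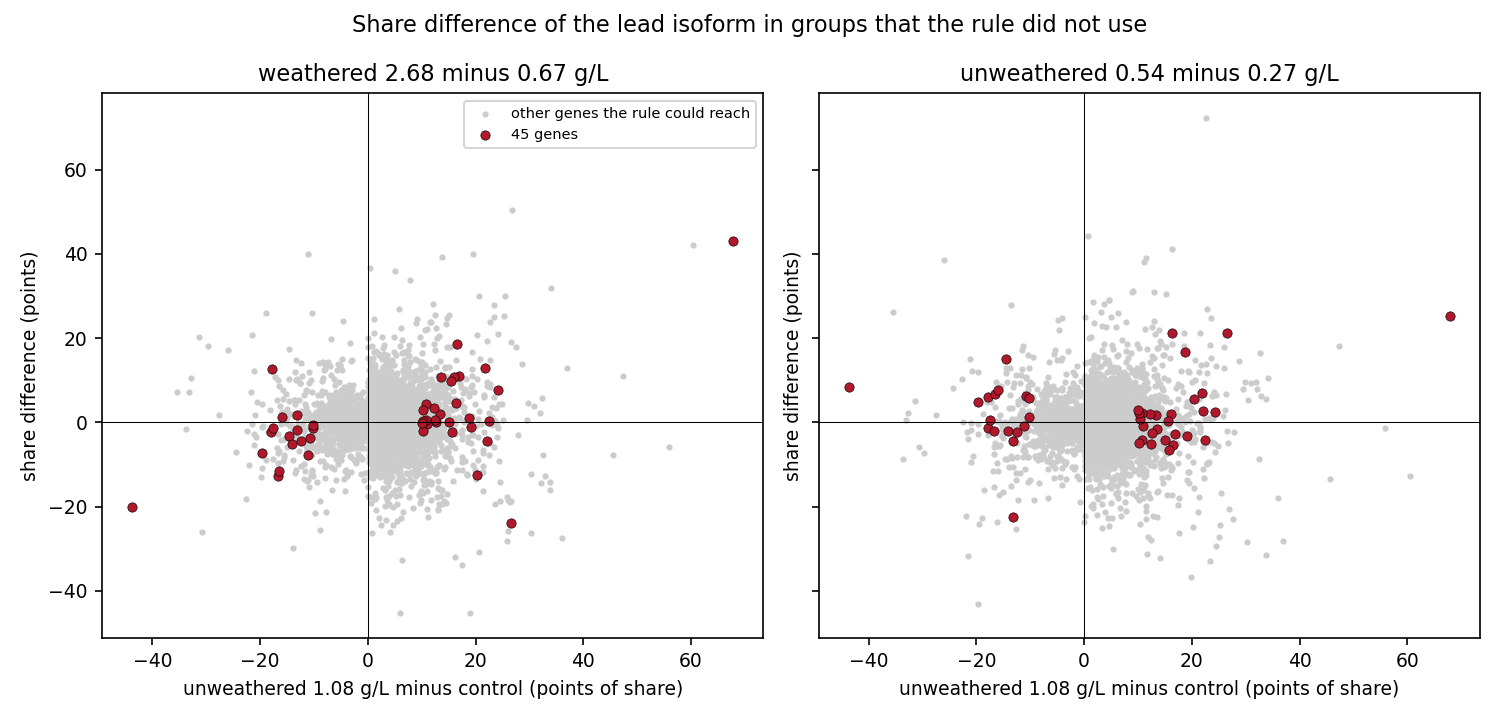
Difference in the mean share of the lead isoform (percentage points, vertical axis) at weathered 2.68 minus 0.67 g/L (left) and unweathered 0.54 minus 0.27 g/L (right), against its difference at unweathered 1.08 g/L minus control (points, horizontal axis); large points are the 45 genes, small points the other examined genes. Left, 34 of the 45 lie on the side of zero that matches their horizontal position; right, 23 do.

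No share of a lead isoform was called in those libraries with edgeR's quasi-likelihood test. In simulated data this test missed most 2-fold changes in an isoform's count, which change its share by less than 2-fold. The absence of calls therefore does not mean that shares were unchanged. Of the 43 leads in genes with enough counts in all 35 libraries, 0 were called at weathered 2.68 against 0.67 g/L, beside 0 of 11303 isoforms (0%), and the smallest adjusted p of any isoform was 0.194. At an unadjusted p under 0.05 there were 6 leads, beside 452 isoforms (4.00%). DESeq2 on the same offsets called 6 isoforms in all. At unweathered 0.54 against 0.27 g/L, 0 leads and 0 isoforms (0%) were called, with 3 leads and 381 isoforms (3.37%) at an unadjusted p under 0.05, and DESeq2 called 13 isoforms. Over the slope on weathered concentration, 0 leads and 0 of 11285 isoforms (0%) were called, with 5 leads and 438 isoforms (3.88%) under 0.05, and DESeq2 called 18. The slope had the original direction in 29 of 43 leads (67.4%), beside 2179 of 4093 genes (53.2%).

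The leads with an unadjusted p under 0.05 in the weathered comparison were those of rank 1, 3, 16, 17, 23 and 27, and all but rank 3 lay in their original direction. In the gene of rank 27, whose lead of 1629 bases stood beside 1 other isoform of 812 bases, the lead held 29.3%, 33.1%, 32.8%, 25.8% and 31.4% at 2.68 g/L, against 31.5%, 17.7%, 15.4%, 17.8% and 15.8% at 0.67 g/L. The first library at 0.67 g/L lay within the higher group and the other 4 lay below it. The log2 change in share was 0.49 ± 0.149 (SE, adjusted p = 0.765, edgeR). Its mean share was 32.3% at unweathered 1.08 g/L and 18.8% in controls.

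In the gene of rank 17 the lead of 1155 bases held 50.3%, 39.2%, 34.6%, 49.1% and 41.3% at 2.68 g/L, against 46.9%, 51.7%, 49.9%, 64.9% and 58.8% at 0.67 g/L (log2 change -0.36 ± 0.113, SE, adjusted p = 0.765, edgeR). The groups overlapped through the 2 highest libraries at 2.68 g/L. Its share was lower at unweathered 1.08 g/L too, with a mean of 42.8%, against 59.3% in controls. In the gene of rank 23, which had isoforms of 5146 and 2449 bases, the longer isoform held 39.6%, 40.9%, 43.9%, 42.5% and 46.9% at 2.68 g/L, against 17.4%, 40.5%, 33.4%, 35.5% and 38.5% at 0.67 g/L. The groups overlapped through the second library at 0.67 g/L, and the first library of that group was far below the others.

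Both members whose libraries separated at unweathered 0.54 against 0.27 g/L lay in their original direction. In the gene of rank 30 the lead of 2217 bases held 24.7%, 25.6%, 23.8%, 18.02% and 30.5% at 0.54 g/L, against 46.8%, 52.8%, 43.8%, 45.9% and 46.1% at 0.27 g/L. The log2 change in share was -0.92 ± 0.227 (SE, adjusted p = 0.965, edgeR). The weathered groups of this gene did not separate, with 16.5% to 71.8% at 0.67 g/L alone. In the gene of rank 11 the lead of 3061 bases held 71.2%, 62.7%, 63.5%, 78.4% and 74.0% at 0.54 g/L, against 51.8%, 53.8%, 46.3%, 55.6% and 58.3% at 0.27 g/L (log2 change 0.39 ± 0.156, SE, adjusted p = 1, edgeR).

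Total levels of the members, summed over isoforms, were also compared. At unweathered 1.08 g/L against control the log2 difference of the gene total had a median of 0.09 over the 45 members, with 43 of them within 1 in either direction. The highest values were 2.64, in the gene of rank 1, and 1.30. By edgeR's adjusted p over all features, 8 of the 45 totals were called, 7 higher and 1 lower, beside 531 of 17990 genes (2.95%) in that comparison. Among isoform shares in that comparison, edgeR called 7 of the 59 member isoforms tested, in 5 genes, beside 0.195% of all isoforms. It is the comparison that chose the members, and nothing is read from these counts. At weathered 2.68 against 0.67 g/L the median over the members was 0.06, beside 0.0024 over all genes. At unweathered 0.54 against 0.27 g/L, 0 of 17990 totals were called by edgeR (0%), with 514 at an unadjusted p under 0.05, and DESeq2 called 0.

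The lead shares varied widely within groups. In the 5 groups that the selection did not use, the SD of the lead share within a group averaged 3.70 to 22.0 points over the members, with a median of 8.26 points, beside 6.82 points over all genes. Over the single libraries of those 5 groups the lead share ranged over at least 30 points in 33 members and over at least 50 points in 9. In 11 members the lead fell under 1% of the gene in some library. The genes of rank 7 and 38 had under 50 counts in some library of those groups, so their shares were not tested. Of the 45 leads, 28 (62.2%) are in the authors' deposited table of 1.08 against 0 g/L, beside 68.9% of the leads of all examined genes, and 7 members have no isoform in it.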

How the data were processed

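The submitters' processing notes name Trimmomatic 0.38, kallisto without a version, and DESeq2. The names of the assembled transcripts follow Trinity's scheme; how the assembly was made and annotated is unstated in the labels and headers. The authors deposited, per the file headers, an estimated count and a TPM value for each of 34903 transcripts in each of 35 libraries. Their deposited table of 1.08 against 0 g/L holds log2 fold changes and p-values adjusted for multiple testing (FDR column) for 13326 transcripts. The other deposited comparison tables were not used here.

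The isoform share is a transcript's TPM divided by the summed TPM of its Trinity gene. Because TPM is relative to transcript length, the share is per transcript molecule, while the share tested is that of estimated counts. Tests used edgeR 4.0.16 (quasi-likelihood) on estimated counts rounded to whole numbers, with the log of the gene's summed count as offset, in 1 fit of all 35 libraries with a mean per group. The weathered slope used the 15 weathered libraries. Isoforms entered where filterByExpr kept them, in genes with 2 or more isoforms and 50 or more counts in all libraries of the fit. Gene totals were tested with TMM scaling. The Benjamini-Hochberg adjustment ran over all features of a fit, with calls below 0.05. The edgeR tests were run on simulated data with known changes. For the share tests, the count of an isoform was changed and its gene's total moved with it, so its share changed by less. The changed isoforms held a minor share of their gene, unlike many leads. The share tests recovered 22.1% to 25.3% of 2-fold changes and 59.55% to 67.8% of 4-fold changes in such counts. The tests of gene totals recovered 56% to 59% and 80% to 81%. The alternatives were DESeq2 1.42.0, limma 3.58.1 on transformed shares, diffSpliceDGE, other filters and scalings, a replicate block and leaving out each library. The members and the lists were chosen with earlier results of these data known. Named isoforms were the 2 leads with the largest mean gain and the 2 with the largest mean loss among members with 50 or more counts in all 35 libraries; no other member is given an identifier. No 2 libraries held identical values. Counting error sets the precision of low genes, and the estimated division of reads among similar isoforms adds to it.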

Additional observations from a re-analysis of the deposited data

Results flagged for a closer look

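In the 4 named isoforms and the totals of their genes, 56 groups of 5 libraries were checked for a library far from the other 4, by Dixon's ratio against its critical value of 0.71, and 5 had one; chance alone marks about 5% of such groups. For TRINITY_DN734_c0_g1_i20, the fourth library at unweathered 0.27 g/L had a share of 49.6%, with 16.6% to 25.0% in the other 4. For the same isoform, the second control library had 2.58%, with 6.32% to 7.54% in the other 4. For TRINITY_DN43901_c0_g1_i12, the fifth library at unweathered 1.08 g/L had 93.5%, with 47.5% to 58.3% in the other 4. For this isoform the fourth library at unweathered 0.54 g/L had 29.1%, with 72.9% to 83.1% in the other 4. The total of the gene TRINITY_DN5308_c0_g1 was 22.4 CPM (counts scaled to library size) in the first library at weathered 1.34 g/L, with 12.6 to 15.3 in the other 4.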

How the results depend on the processing

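For isoform shares, edgeR's 0 calls became 6 with DESeq2 and 4 with diffSpliceDGE under either scaling at weathered 2.68 against 0.67 g/L, 13 with DESeq2 at unweathered 0.54 against 0.27 g/L, and 18 with DESeq2 or 12 with a slope per leachate over all 35 libraries for the weathered slope. Of these, 1 isoform in each DESeq2 count and 4 of the 12 are among the 62 isoforms that met the criterion. In that fit over all libraries, which include those that chose the members, the weathered slope of TRINITY_DN734_c0_g1_i20 was 0.89 (adjusted p = 0.0309, edgeR). Gene totals called at weathered 2.68 against 0.67 g/L were 14 with edgeR, 40 with DESeq2 and 4 with only the compared groups. The total of TRINITY_DN734_c0_g1 was 1.84 with an adjusted p of 0.0583 in that last fit; its adjusted p was 4.996e-06 with DESeq2. Leaving out 1 library at a time gave 0 to 1 share calls and 7 to 19 gene totals at weathered 2.68 against 0.67 g/L, with 7 totals without the third or the fifth library at 2.68 g/L or the second at 0.67 g/L. The total of TRINITY_DN734_c0_g1 then lay between 1.60 and 2.00 on the log2 scale and remained called. The other share and total comparisons had 0 calls without any 1 library. A minimum difference of 5 points gave 84 members and one of 20 points gave 8, of which 5 at weathered 2.68 against 0.67 g/L and 6 at unweathered 0.54 against 0.27 g/L kept their direction. Without 1 library the criterion is easier to meet and gave 61 to 112 members. The 45 members' direction counts without 1 library were 29 to 33 (weathered, 34 with all) and 20 to 24 (unweathered, 23 with all). The cause of these differences was not tested.

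Replicate numbers recur across groups but did not pair the libraries: same-numbered libraries correlated at -0.085 to 0.112 over 20 pairs, with 1 pair above 0.1. With the replicate block, 0 isoform shares were called in each comparison and 11 gene totals at weathered 2.68 against 0.67 g/L.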
